A study of Mus musculus with 5 samples.

Results

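The genes described here are 10 mouse genes of epithelial defence that are known to respond to microbes: the secreted lectins Reg3g and Reg3b, the resistin-like protein Retnlb, the dual oxidase Duox2 with its maturation factor Duoxa2, the inducible nitric oxide synthase Nos2, the siderophore-binding protein Lcn2, the immunoglobulin transporter Pigr, and the receptors Tlr2 and Tlr4. They were taken from a list of names, with no threshold on their values, out of 19938 genes represented by a probe set that names a single gene. All 10 were found, each with 1 probe set. The data are deposited RMA expression values, a log2 scale after background correction and normalization between arrays, from Affymetrix Mouse Gene 1.0 ST arrays of gut RNA.

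The mice were males of the ddY stock, 5 weeks old, with 5 treatments and 1 array for each. Every mouse received 2 oral administrations 0.5 hours apart, and tissue was taken 4 hours after the last. The group GA+GA received gum arabic, the control, in both. LG21+GA received Lactobacillus gasseri OLL2716, a probiotic strain, and then gum arabic, and GA+Asp received gum arabic and then aspirin. Tep+Asp received teprenone, a drug that protects the gastric mucosa, and then aspirin, and LG21+Asp received the bacterium and then aspirin. No group lacks gum arabic or another first agent, so untreated tissue was not compared. The sources used here do not give how many animals contributed RNA to each array. With 1 array per group there is no spread between replicates, so no pair of groups could be tested, no p-value is given, and the order of the arrays cannot be set against an error. The number of arrays limits the precision. In such bulk RNA, fewer cells of a type and less RNA per cell cannot be told apart.

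The epithelium of the gut meets microbes with secreted proteins and with oxidants. REG3 lectins and RELMβ, the product of Retnlb, act on bacteria in the intestinal lumen, and lipocalin 2 binds bacterial siderophores. DUOX2, which needs DUOXA2 to reach the cell surface, releases hydrogen peroxide, and inducible nitric oxide synthase makes nitric oxide. The product of Pigr carries immunoglobulin A across epithelium, in rodents across hepatocytes as well. TLR2 and TLR4 recognise bacterial lipopeptides and lipopolysaccharide.

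Promoter windows are shown for the 4 of 10 genes whose values spread at least 1.2-fold over the 5 arrays, as 8.88% of all genes did, and for Reg3b, the paralogue of Reg3g. RefSeq windows of assembly GRCm38.p6, from 250 bases before the annotated start to 50 after it, were matched for 7 of the 10 genes. Capitals mark matches on either strand to TTCNNNGAA for STAT factors and to TGANTCA for AP-1. They also mark TATAAA, the core promoter element, and the NF-kB consensus; none of these searches overlaps another in the windows shown. The windows are Reg3g on the minus strand at chr6:78468825-78469124, Reg3b on the plus strand at chr6:78370635-78370934, Duox2 on the minus strand at chr2:122298178-122298477, Duoxa2 on the plus strand at chr2:122298650-122298949, and Pigr on the plus strand at chr1:130826434-130826733.
Reg3g: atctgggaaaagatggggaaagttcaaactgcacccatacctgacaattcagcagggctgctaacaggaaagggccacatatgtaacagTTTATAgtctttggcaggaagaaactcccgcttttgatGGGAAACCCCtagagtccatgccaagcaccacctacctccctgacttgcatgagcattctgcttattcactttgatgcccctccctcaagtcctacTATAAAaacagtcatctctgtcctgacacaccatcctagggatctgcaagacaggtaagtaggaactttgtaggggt
Reg3b: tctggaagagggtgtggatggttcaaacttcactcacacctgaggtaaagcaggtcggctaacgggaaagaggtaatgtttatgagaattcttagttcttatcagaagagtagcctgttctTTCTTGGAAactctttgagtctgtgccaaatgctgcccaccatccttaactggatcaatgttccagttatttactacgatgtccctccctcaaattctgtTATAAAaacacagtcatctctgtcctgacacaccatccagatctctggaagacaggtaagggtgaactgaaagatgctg
Duox2: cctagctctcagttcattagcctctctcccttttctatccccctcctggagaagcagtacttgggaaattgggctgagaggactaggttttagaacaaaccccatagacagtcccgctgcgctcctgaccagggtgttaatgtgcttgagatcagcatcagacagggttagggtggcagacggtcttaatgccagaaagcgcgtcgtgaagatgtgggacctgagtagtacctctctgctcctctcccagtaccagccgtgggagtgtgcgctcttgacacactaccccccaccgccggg
Duoxa2: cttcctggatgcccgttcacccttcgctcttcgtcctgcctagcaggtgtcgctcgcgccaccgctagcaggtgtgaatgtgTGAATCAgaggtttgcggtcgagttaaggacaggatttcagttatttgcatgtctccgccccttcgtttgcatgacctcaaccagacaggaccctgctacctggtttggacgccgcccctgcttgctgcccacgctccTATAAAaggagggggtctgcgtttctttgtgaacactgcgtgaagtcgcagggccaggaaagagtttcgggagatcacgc
Pigr: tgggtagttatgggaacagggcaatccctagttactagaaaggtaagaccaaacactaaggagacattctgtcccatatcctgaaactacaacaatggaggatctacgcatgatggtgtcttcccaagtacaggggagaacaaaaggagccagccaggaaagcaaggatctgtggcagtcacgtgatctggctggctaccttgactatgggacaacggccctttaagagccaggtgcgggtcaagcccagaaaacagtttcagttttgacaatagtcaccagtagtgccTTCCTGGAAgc

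Both Reg3 windows held TATAAA close to the start, 27 bases before it in Reg3g and 29 in Reg3b, and a global alignment of these windows had 68.1% identical columns. Duoxa2 held TATAAA 30 bases before its start and an AP-1 match 168 bases before it, while the Duox2 window held none of the 4 motifs. Duox2 and Duoxa2 lie head to head on opposite strands of chromosome 2. Reg3g had an NF-kB consensus match 123 bases before its start and Reg3b a STAT match 129 bases before. Pigr had a STAT match that began at base 40 after its start. Of all 32851 promoter windows, 8.3% held the STAT letters, 7.81% the AP-1 letters, 4.51% the NF-kB consensus and 13.6% TATAAA. These matches describe letters only.

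The label gives the tissue as gut, and its markers were checked. The highest values were those of the stomach: all 9 markers of the gastric surface and glands had values between 11.66 and 13.55, led by the pepsinogen Pgc and the gastrokine Gkn2. Intestinal markers were mixed. Of 10 enterocyte markers the aminopeptidase Anpep ran from 11.73 to 11.85, Apoa4 from 10.66 to 10.69 and villin, Vil1, from 8.12 to 8.20, while the sucrase Sis, between 4.65 and 4.97, had a mean below Xist. Of 7 goblet cell markers Agr2 ran from 11.98 to 12.17, Spink4 from 9.15 to 9.55 and Spdef from 9.20 to 9.26, and the intestinal mucin Muc2 was at 6.59 on all 5 arrays. Of 5 Paneth cell markers Lyz1 ran from 8.06 to 8.33 and Ang4 from 7.15 to 7.33, while the defensin Defa24, between 2.46 and 2.88, and the lectin Itln1, between 4.36 and 5.27, had means below Xist. Agr2 is also made by gastric mucous cells. Of the enterocyte, goblet cell and Paneth cell markers 1 in each list had a range of 1.5-fold, as 1.65% of all genes had. Alpi, the enterocyte marker, was at 7.77 in LG21+GA and between 7.01 and 7.37 elsewhere. Clca1, the goblet cell marker, ran from 8.12 to 8.72, and Itln1 was the Paneth cell marker. Which segments of the gut the RNA holds is not given in the sources used here and was not settled by these markers. As marks of background, Xist, which male tissue does not express, lay between 4.88 and 4.91, and the 95th percentile of the 1027 olfactory receptor genes between 6.26 and 6.34.

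Facts of the level set how far the values can be read. On all 5 arrays 3 of the 10 genes, Reg3g, Reg3b and Retnlb, lay below the 95th percentile of olfactory receptor genes. The mean of 4 genes, Duox2, Duoxa2, Tlr2 and Tlr4, lay above the median of all genes, 7.41. Exact ties were common: 6.84% of all genes had equal values on all 5 arrays, as had 2 of the 10, Reg3b and Nos2. A tie on this scale is no measurement of the absence of a difference. Array medians lay between 6.94 and 6.98.

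**Figure D1:**
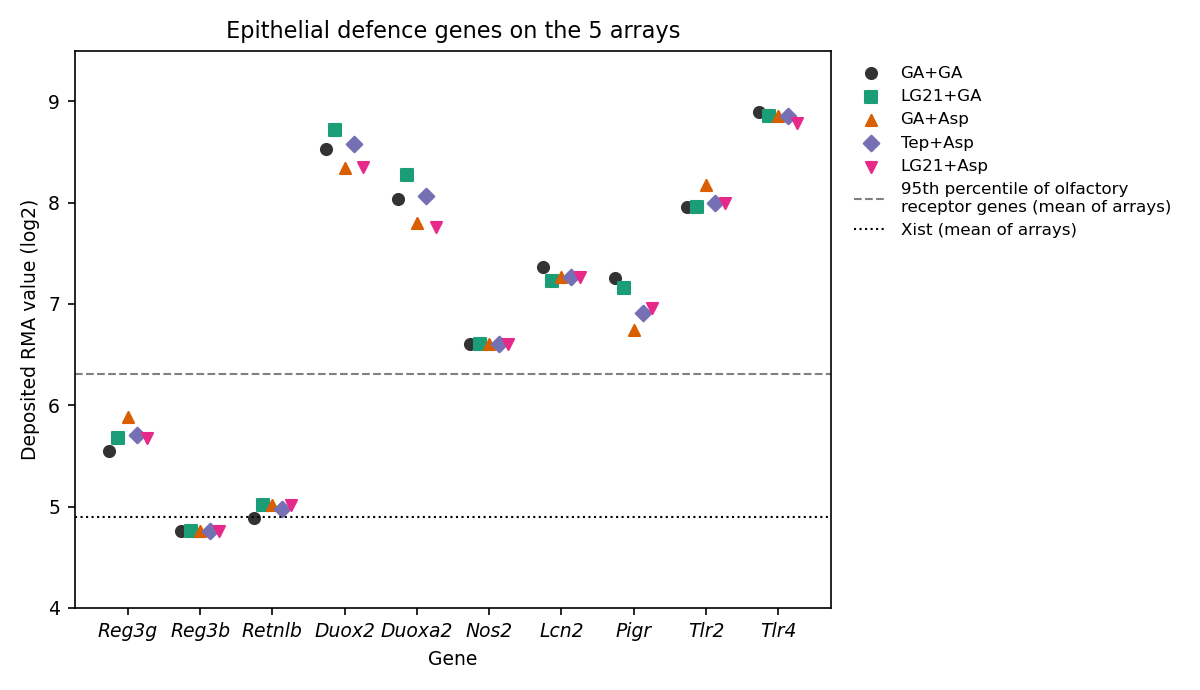
Deposited RMA values on the log2 scale for the 10 genes, 1 point per array; different probe sets are not comparable in level. Reg3b and Nos2 have the same value on all 5 arrays, Reg3g, Retnlb and Reg3b lie below the dashed line (95th percentile of olfactory receptor genes), and Duox2, Duoxa2 and Pigr spread most.

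The secreted lectins and Retnlb were at or near background. Reg3g, a lectin that kills Gram-positive bacteria, was at 5.55 in GA+GA, 5.67 in LG21+GA, 5.89 in GA+Asp, 5.71 in Tep+Asp and 5.67 in LG21+Asp. GA+GA was thus lowest and GA+Asp highest, and LG21+GA and LG21+Asp were tied. The whole range, 0.34, was wider than that of 95.2% of genes, yet every value lay below the 95th percentile of olfactory receptor genes of its array. Reg3b, its close relative, was at 4.76 on all 5 arrays, below Xist. Retnlb, a product of intestinal goblet cells, was at 4.89 in GA+GA, 4.98 in Tep+Asp and 5.02 on the other arrays. A difference in Retnlb is therefore given without a fold. By root mean square distance between values centred on each mean, the profiles nearest to Reg3g were Zfp947 at 0.014, Gkap1 at 0.015 and Fnip2 at 0.018, each highest in GA+Asp and lowest in GA+GA. Reg3 probe sets may share target sequence, which makes the assignment between family members uncertain.

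Duox2 and Duoxa2 were well above these background marks, and both were highest in LG21+GA. Duox2 was at 8.53 in GA+GA, 8.72 in LG21+GA, 8.35 in GA+Asp, 8.58 in Tep+Asp and 8.35 in LG21+Asp. Duoxa2 was at 8.03 in GA+GA, 8.28 in LG21+GA, 7.79 in GA+Asp, 8.06 in Tep+Asp and 7.76 in LG21+Asp. For both genes LG21 without aspirin was highest, Tep+Asp and GA+GA lay between, and the other aspirin arrays were lowest. LG21+Asp minus GA+Asp was 0.00 for Duox2 and -0.03 for Duoxa2. The range was 0.37 for Duox2 and 0.51 for Duoxa2, wider than 96.2% and 97.9% of genes. Nos2, the other oxidant enzyme, was at 6.60 on all 5 arrays. Of 7 measured nitric oxide and arginine genes 2, Arg1 and Slc7a2, had a range of 1.2-fold, where 8.88% of all genes had. The arginase Arg1, at 8.17 in GA+GA and 6.72 in GA+Asp, had a range of 1.45. It was the 1 gene of the list past 1.5-fold (all genes 1.65%). The arginine transporter Slc7a2, at 7.54 in GA+GA and 6.99 in GA+Asp, had a range of 0.55. Arg1 and Slc7a2 took the array order of the hepatocyte markers, whose part was not tested. The argininosuccinate lyase Asl and Gch1, an enzyme of cofactor synthesis for nitric oxide synthases, each had a range of 0.26.

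The partners of these oxidases are given by their ranges. Of the 11 measured genes of NADPH oxidases and their subunits 0 had a range of 1.2-fold, where 8.88% of all genes had. The widest ranges were 0.19 for Nox4, 0.16 for Nox1 and 0.15 for Ncf4, a cytosolic subunit. The other dual oxidase Duox1 ran from 6.17 to 6.25 and its maturation factor Duoxa1 from 6.73 to 6.74. Cyba, the membrane subunit shared by several oxidases, ran from 9.91 to 10.07.

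Profiles were compared by the root mean square distance between values centred on each gene's mean over 5 arrays. No member had a range of 1.5-fold, the limit set for naming neighbours, so 1.2-fold was used, a choice made after the values were seen; it left 1345 genes. The profile nearest to Duox2 was Oasl2, an interferon-inducible gene, at a distance of 0.031, followed by Iltifb at 0.040 and Rnase2a at 0.042, both with means below that of Xist. Duoxa2 was the 5th nearest to Duox2, at 0.049. The profile nearest to Duoxa2 was Cd74, the invariant chain of MHC class II, at 0.031, followed by Duox2 and by the guanylate-binding protein Gbp2b at 0.060. Cd74 was at 9.22 in GA+GA, 9.48 in LG21+GA, 9.05 in GA+Asp, 9.27 in Tep+Asp and 8.92 in LG21+Asp. Squamous epithelium markers also differed between these arrays, with summed unlogged values of 1900 in GA+GA, 1706 in LG21+GA, 1779 in GA+Asp, 2239 in Tep+Asp and 951 in LG21+Asp over 8 of 8 genes. Their part in the Duox2 and Duoxa2 values was not tested.

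**Figure D2:**
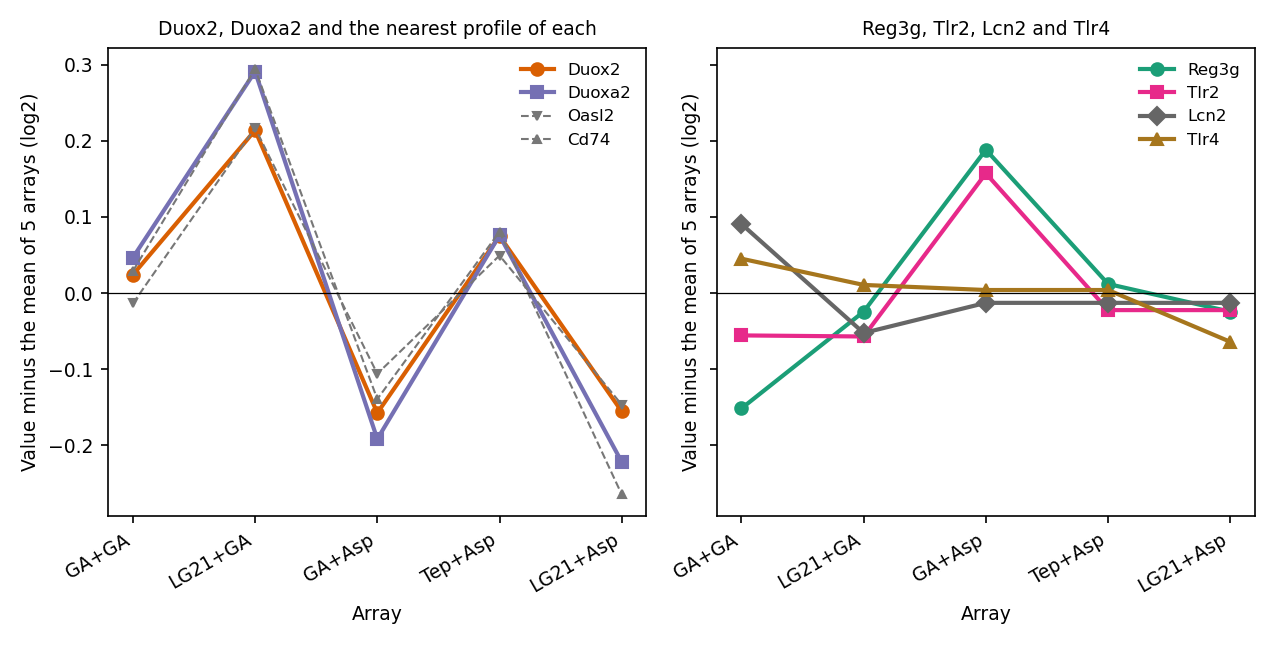
Values centred on each gene's mean over 5 arrays (log2), by array. On the left Duox2 and Duoxa2 (solid lines) peak in LG21+GA and are low in GA+Asp and LG21+Asp, as are Oasl2 and Cd74 (dashed); on the right Reg3g and Tlr2 are highest in GA+Asp, while Lcn2 and Tlr4 have ranges of 0.14 and 0.11.

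Lcn2 was highest in GA+GA and lowest in LG21+GA. It was at 7.37 in GA+GA, 7.23 in LG21+GA and 7.27 on each of the 3 aspirin arrays, exactly equal there. Its range, 0.14, was wider than that of 69.7% of genes. Neutrophils also make lipocalin 2, and the 10 neutrophil markers had summed unlogged values between 698 and 721 over the 5 arrays. The highest of them were Ltf, between 6.79 and 7.07, Elane, at 6.68 on all 5 arrays, and Camp, between 6.58 and 6.79. The granulocyte markers Ly6g, between 4.39 and 4.72, and Cxcr2, between 3.90 and 3.95, were the 2 of 10 whose means lay below Xist. Their part in the Lcn2 values was not tested.

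Pigr was the member that differed most with aspirin alone. It was at 7.25 in GA+GA, 7.16 in LG21+GA, 6.74 in GA+Asp, 6.91 in Tep+Asp and 6.96 in LG21+Asp. All 3 aspirin arrays lay below both arrays without aspirin. GA+Asp was 1.42-fold below GA+GA, and 1.08% of all genes differed more in that comparison. Hepatocyte markers moved with these values: 8 of 10 had the same strict order of arrays as Pigr. That order ran from GA+GA as the highest through LG21+GA, then LG21+Asp above Tep+Asp, down to GA+Asp. It was found in 0.767% of the other genes, but 77.7% of all genes had a tie and could not match. Among genes without ties the share is therefore larger. The orders were compared after the values were seen. The exceptions among the hepatocyte markers were Apoa1 and Ttr. The summed unlogged value of the 10 markers stood at 23173 in GA+GA, 18880 in LG21+GA, 9668 in GA+Asp, 11001 in Tep+Asp and 15045 in LG21+Asp, and albumin, Alb, ran from 7.43 to 12.69. Serpina1c was below Xist on 1 array, at 3.91 in GA+Asp, and the others lay above it on every array. Their part in the Pigr values was not tested.

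The profiles nearest to Pigr were Akr1d1, an enzyme of bile acid synthesis, at a distance of 0.017, Mettl7b at 0.032 and Ly6d at 0.042. Akr1d1 was at 5.46 in GA+GA and 4.93 in GA+Asp, Mettl7b at 7.03 and 6.48, and Ly6d at 9.53 and 9.02. All values of Akr1d1 lay below the 95th percentile of olfactory receptor genes. The cargo of the transporter showed no such order: the joining chain Jchain ran from 5.25 to 5.44 and the immunoglobulin A heavy chain Igha from 5.90 to 6.03, both below the 95th percentile of olfactory receptor genes. Tnfrsf13b, a receptor of B cells, had a range of 0.13. The largest range among the 10 measured genes of immunoglobulin A and plasma cell recruitment was 0.45, in the chemokine Ccl28, at 7.96 in Tep+Asp and between 8.28 and 8.41 elsewhere.

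**Figure D3:**
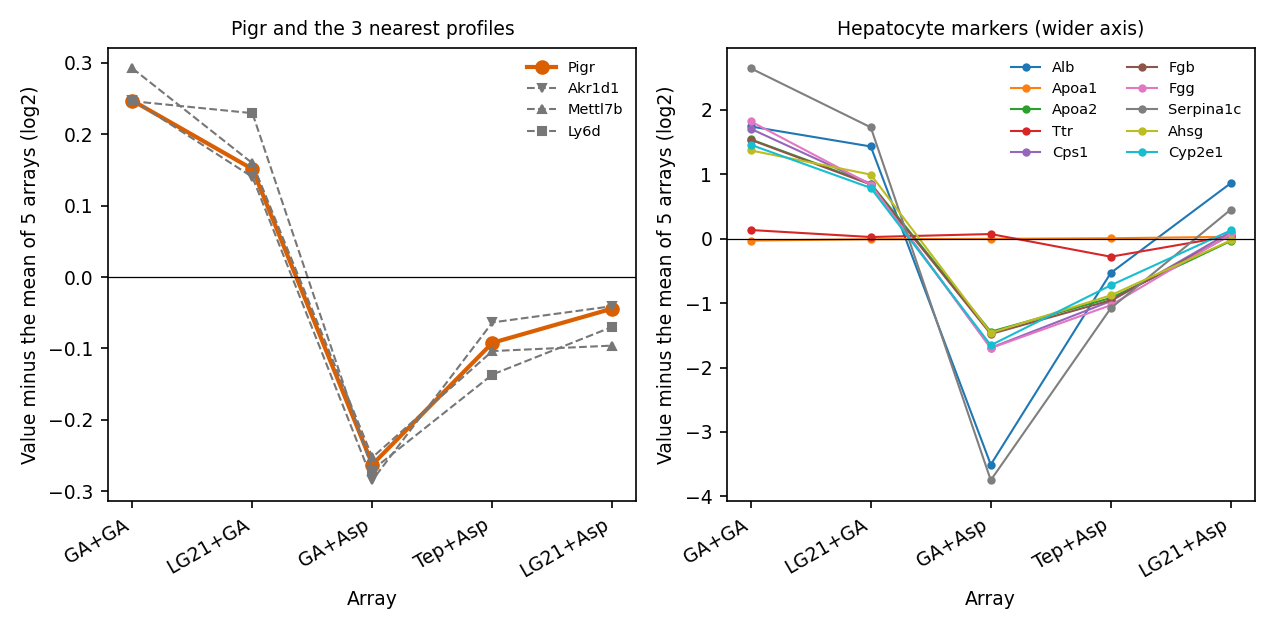
Values centred on each gene's mean over 5 arrays (log2), by array. Pigr (solid, left) and its 3 nearest profiles (dashed) are highest in GA+GA and lowest in GA+Asp; on the right, on a wider axis, 8 of 10 hepatocyte markers take the same order and Apoa1 and Ttr do not.

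Of the receptors, Tlr2 was at 7.96 in both GA+GA and LG21+GA, at 8.17 in GA+Asp and at 7.99 in both Tep+Asp and LG21+Asp. GA+Asp stood above the rest, and the aspirin arrays lay above the other 2, by as little as 0.03 in the pretreated mice. Tlr4 was at 8.89 in GA+GA, 8.86 in LG21+GA, 8.85 in GA+Asp and Tep+Asp and 8.78 in LG21+Asp. Its range, 0.11, was close to the median range of all genes, 0.09. Macrophages carry both receptors, and the 8 macrophage markers had summed unlogged values between 2188 and 2335, with the highest in Tep+Asp.

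Of 22 other measured genes of the Toll-like receptor pathway 2 had a range of 1.2-fold, a share close to the 8.88% of all genes. These were the lipopeptide receptor Tlr1, between 6.67 in Tep+Asp and 7.12 in LG21+GA, and the lipopolysaccharide-binding protein Lbp, at 8.66 in GA+GA and 8.40 in GA+Asp. Lbp, also a hepatocyte product, was at 8.58 in Tep+Asp, 8.45 in LG21+GA and 8.43 in LG21+Asp; the part of hepatocyte RNA in it was not tested. Cd14, the co-receptor of TLR4, was at 6.61 in LG21+GA and between 6.83 and 6.88 elsewhere. The inhibitory kinase Irak3 had a range of 0.18. The adaptor Myd88 was between 9.96 and 9.97. Of 14 NF-kB target genes 0 had a range of 1.2-fold, and so had 0 of 14 genes of the interleukin-22 and interleukin-17 pathway, where 8.88% of all genes had. Il22 itself was on the second list but was not among its measured genes. The widest ranges were 0.26 for Tnfaip3, 0.24 for Cxcl1, 0.22 for Cxcl2 and 0.18 for Nfkbia in the first list. In the second they were 0.20 for the decoy receptor Il22ra2, 0.19 for the receptor Il22ra1, 0.18 for Il18 and 0.16 for Il23a.

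The bacterium given without aspirin was set against gum arabic alone. None of the 10 genes was 1.5-fold apart, where 0.557% of all genes were, and none was 1.2-fold apart, where 2.09% of all genes were. Duoxa2 differed by 0.24 and Duox2 by 0.19, and 2.4% and 3.96% of genes differed more. Lcn2 differed by -0.14, Reg3g by 0.13, Pigr by -0.10 and Retnlb by 0.13. The median over the 10 genes was 0.00, as over all genes.

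Aspirin alone, GA+Asp against GA+GA, asked how the drug changed the tissue. None of the 10 genes was 1.5-fold apart (all genes 0.913%). At 1.2-fold 2 were, against 2.91% of all genes, with Pigr lower by a log2 difference of -0.51 and Reg3g higher by 0.34. Duoxa2 differed by -0.24, Tlr2 by 0.21 and Duox2 by -0.18. The members' median was -0.02 and that of all genes 0.00.

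Aspirin in mice given LG21, LG21+Asp against LG21+GA, uses arrays apart from those of aspirin alone. At 1.5-fold again 0 of 10 genes differed (all genes 0.502%), and at 1.2-fold 2 did (all genes 2.32%), namely Duoxa2 at -0.51 and Duox2 at -0.37. Larger differences were found in 0.702% and 1.13% of genes. Both genes were lower with aspirin in vehicle-treated and in LG21-treated mice, and so was Pigr, by -0.20 in the latter. In Tep+Asp, however, Duox2, at 8.58, and Duoxa2, at 8.06, lay above GA+GA, at 8.53 and 8.03. Reg3g, with a difference of 0.34 with aspirin alone, was equal in LG21+Asp and LG21+GA, as were Reg3b, Retnlb and Nos2. The median was 0.00 for the members and for all genes.

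The title of the series concerns the strain under aspirin, measured here as LG21+Asp minus GA+Asp. None of the 10 genes was 1.5-fold apart (all genes 0.582%) or 1.2-fold apart (all genes 3.37%). Pigr was higher by 0.22, Reg3g differed by -0.21 and Tlr2 by -0.18. Duox2 and Duoxa2, at 0.00 and -0.03, were close to their values in GA+Asp. The median was 0.00, as over all genes.

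For teprenone as the first agent, Tep+Asp minus GA+Asp, the same GA+Asp array served as the base. At 1.5-fold 0 genes differed (all genes 0.401%) and at 1.2-fold 1 did (all genes 2.32%), Duoxa2 at 0.27, just past the threshold. Duox2 differed by 0.23, Pigr by 0.17, Tlr2 by -0.18 and Reg3g by -0.18. Directly against each other, LG21+Asp minus Tep+Asp was -0.30 for Duoxa2, the 1 member past 1.2-fold (all genes 2.49%), and -0.23 for Duox2, and 0 members were 1.5-fold apart (all genes 0.557%). Pigr, Tlr2 and Reg3g differed by 0.05, 0.00 and -0.04 between these pretreatments. Both medians were 0.00, as were those of all genes.

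**Figure D4:**
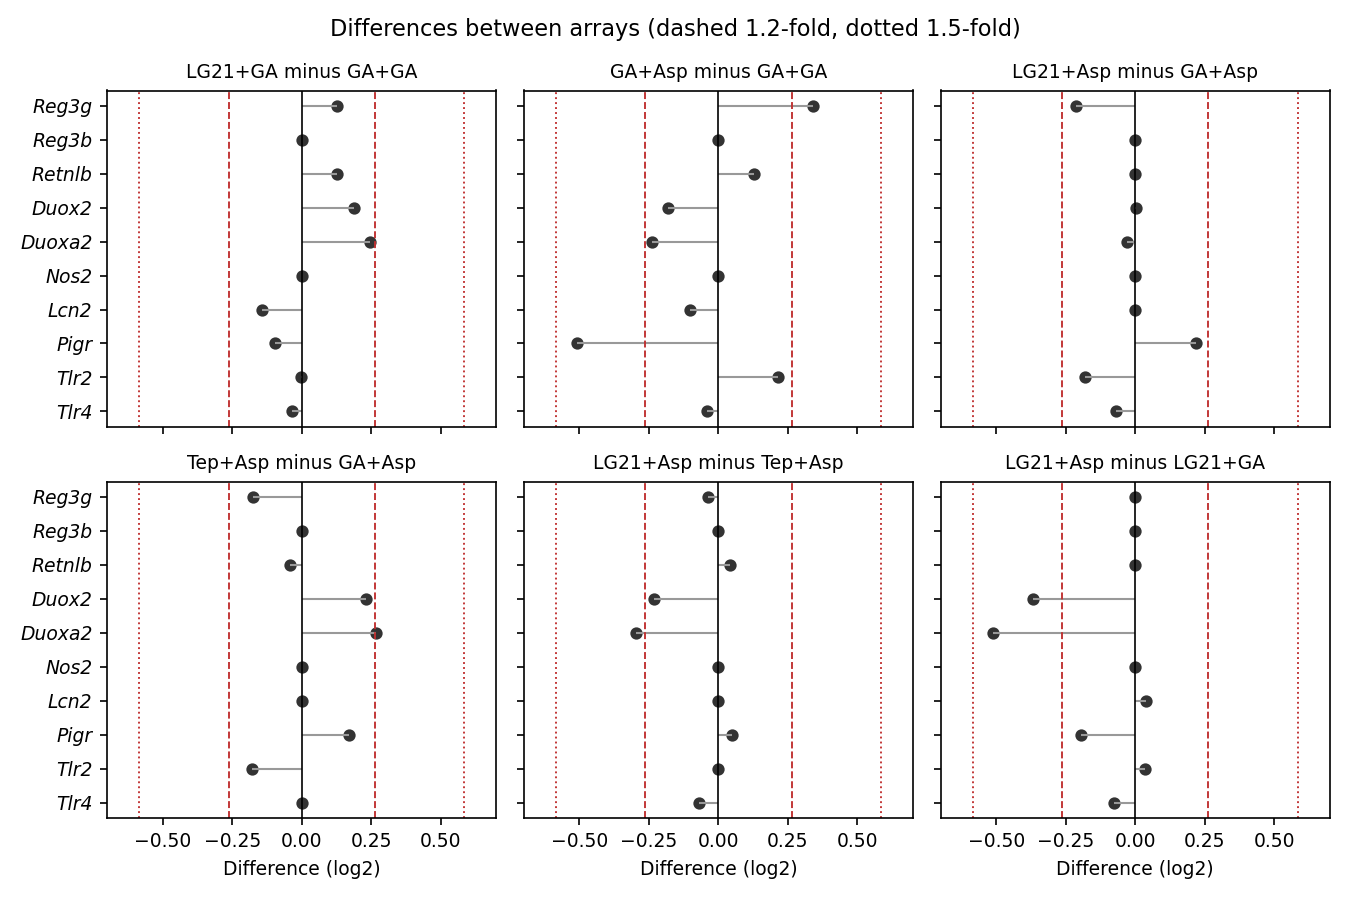
Differences of log2 values for the 10 genes in 6 pairs of arrays, with dashed lines at 1.2-fold and dotted lines at 1.5-fold. No point reaches a dotted line; Pigr and Reg3g pass the dashed line with aspirin alone, Duox2 and Duoxa2 with aspirin after LG21, and Duoxa2 also in both comparisons with Tep+Asp.

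The LG21 by aspirin interaction, the aspirin difference after LG21 minus that after vehicle, was 1.5-fold for 0 of 10 genes (all genes 1.22%) and 1.2-fold for 3 (all genes 5.65%). These were Reg3g at -0.34, Pigr at 0.31 and Duoxa2 at -0.27. The median was -0.08, against 0.00 for all genes. When the 3 aspirin arrays are set against the other 2, pretreatments differ within each side, so the arrays are not replicates and no test was made. Without overlap in either direction were 3 of the 10 genes, where 8.89% of all genes were: Pigr and Tlr4 lower and Tlr2 higher with aspirin. With a gap of at least 0.1 this left 1, Pigr, and 1.1% of all genes.

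Further defence genes came from 11 lists of related functions, with 125 of 138 symbols measured. With aspirin alone 1 of the 125 was 1.5-fold higher and 4 lower, where 0.0602% and 0.853% of all genes were. With LG21 alone 2 were higher and 3 lower, where 0.0652% and 0.492% of all genes were. The median difference of the 125 genes was 0.00 in both, as over all genes. The higher gene in both was Reg1, a lectin-like growth factor of pancreas and stomach, at 5.91 in GA+GA, 6.80 in LG21+GA, 6.93 in GA+Asp, 6.52 in Tep+Asp and 6.57 in LG21+Asp. Its value in GA+GA, the base of both comparisons, lay below the 95th percentile of olfactory receptor genes of that array, 6.30. It alone of the 5 other Reg genes had a range of 1.2-fold, and Reg3a, Reg2 and Reg3d, with ranges of 0.15, 0.08 and 0.00, had means below Xist. The carboxyl ester lipase Cel, a pancreas marker, was likewise lowest in GA+GA, at 8.25, and between 8.61 and 8.79 elsewhere, while the 6 other measured pancreas markers had no range of 1.2-fold; their part was not tested. Itln1, also higher with LG21 alone, is near Xist.

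The lower genes included products of the liver. The hemoglobin and heme scavengers Hp and Hpx, the hepcidin Hamp and the arginase Arg1 were the 4 lower with aspirin alone, and Hp, Hpx and Hamp the 3 lower with LG21 alone. Hpx was at 9.42 in GA+GA, 8.56 in LG21+GA, 6.82 in GA+Asp, 7.31 in Tep+Asp and 7.93 in LG21+Asp, the order of the hepatocyte markers, and Hp took the same order. Hamp did not, with 8.70 in GA+GA, 8.05 in LG21+GA, 8.06 in GA+Asp, 8.42 in Tep+Asp and 8.49 in LG21+Asp. The part of hepatocyte RNA in these values was not tested. The acute phase gene Saa1 had a range of 0.60, with all values below Xist. Of 11 metal withholding and acute phase genes 6 had a range of 1.2-fold, where 8.88% of all genes had. A range of 1.5-fold was found in 4 of them, Hpx, Hp, Hamp and Saa1, against 1.65% of all genes. S100a8 and S100a9, the subunits of calprotectin, had ranges of 0.26 and 0.11. Of 17 other mucosal antimicrobial genes 3 had a range of 1.5-fold, where 1.65% of all genes had: Itln1, the chitinase-like Chil3, between 4.22 and 5.02, and the goblet cell lectin Zg16, at 6.89 in LG21+GA and 6.18 in Tep+Asp. Itln1 and Chil3 had means below Xist. The protease inhibitor Slpi had a range of 0.35. Lysozyme, Lyz2, ran from 9.63 to 9.86. In the remaining lists, 3 of 11 cytosolic sensor genes and 2 of 3 resistin family genes had a range of 1.2-fold (all genes 8.88%). Nlrp10, Nlrc4, Aim2 and Pycard were the widest of the sensor genes, with ranges of 0.42, 0.34, 0.27 and 0.21. Retnlg, Retnla and Retn of the resistin family had ranges of 0.32, 0.27 and 0.19.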

How the data were processed

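RNA of 5 mouse gut samples, 1 per group, was hybridised to 1 Affymetrix Mouse Gene 1.0 ST array each. The deposited log2 values were made by RMA in Expression Console, per the labels; the series' design text names another Affymetrix tool. The log2 scale was taken from the values, which ran from 1.32 to 13.87. Versions and a genome build are not given in the sources used here. Of 35557 probe sets 21789 named 1 gene, 1621 several and 12147 none; 21698 of the single symbols were matched to RefSeq (GRCm38.p6). The probe set of highest mean stood for each of 19938 genes, and the authors' normalization was kept.

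Log2 values were subtracted between 6 pairs of arrays and for 1 interaction, and differences were counted at 1.5-fold, without a test. All 10 members, the up to 4 widest genes of each list, leading or low markers of the lists described and the 3 nearest profiles were named; other names were chosen after values were seen. The members and lists were chosen with earlier results of these data known. Alternatives were a filter at the median of all genes, 1.2-fold and 2-fold, the mean of probe sets, quantile normalization and cyclic loess with 3 iterations (limma 3.58.1 in R 4.3.3). Counting and profile distances (Python 3.11.15) were tested on simulated data.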

Additional observations from a re-analysis of the deposited data

Results flagged for a closer look

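Reg3g differed in opposite directions with LG21 in the 2 settings, by 0.13 without aspirin and by -0.21 with aspirin. It was equal on both LG21 arrays, at 5.67. The opposite signs thus come from the vehicle arrays, at 5.55 in GA+GA and 5.89 in GA+Asp. With 1 array in each group the difference between settings was not tested, and all 5 values lay below the 95th percentile of olfactory receptor genes.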

How the results depend on the processing

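Each of the 210 alternative values of single genes lay within 0.1 of the value reported, with a largest shift of 0.04, under the mean of probe sets, which leaves members with 1 probe set as they were, quantile normalization and cyclic loess. At 1.2-fold in place of 1.5-fold the count of members, 0 in each comparison, became 2 for aspirin alone, 1 for teprenone before aspirin, 1 for LG21 against teprenone, 2 for aspirin after LG21 and 3 for the interaction; these alternatives differ by their construction. With members above the filter only, 4 genes, the median became 0.12 for teprenone before aspirin, -0.15 for LG21 against teprenone, -0.22 for aspirin after LG21 and -0.18 for the interaction, since Duox2 and Duoxa2 then make up 2 of 4 values, and the mean in place of the median gave -0.11 for aspirin after LG21. Non-overlap of the aspirin arrays held for 5 members under quantile normalization and for 1 with a gap of at least 0.1. Quantile normalization breaks exact ties and added Reg3g and Reg3b, and Reg3b was equal on all 5 arrays as deposited. The share of all genes without overlap under quantile normalization is not given here, so the count of 5 has no background beside it. Duoxa2 was the 7th in place of the 5th nearest profile to Duox2 under quantile normalization and cyclic loess. No paired analysis was possible because each group has 1 array. Values near background limit what can be read of Reg3g, Reg3b and Retnlb.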
